A study of Homo sapiens with 16 samples.

Results

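The histone genes of the 4 named clusters were followed in MDA-MB-231, a human cell line from a triple-negative breast cancer, with and without the circadian clock factor BMAL1. Members were the rows whose symbol begins with HIST1H, HIST2H, HIST3H or HIST4H and does not end in PS and digits, the usual ending of a histone pseudogene. The rule took 76 of 60658 genes, of which 55 belong to HIST1, 16 to HIST2, 4 to HIST3 and 1 to HIST4. By class, 6 encode linker histone H1, 17 H2A, 23 H2B, 15 H3 and 15 H4. GENCODE 29 holds 75 of them and annotates 70 as protein coding and 5 as pseudogenes (HIST2H2BA, HIST2H2BB, HIST2H2BD, HIST2H3DP1 and HIST3H2BA), so the symbol rule did not remove every pseudogene.

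Wild type (WT) cells and cells labelled BMAL1 -/- (KO, from the gene ARNTL) were each kept as control or given cisplatin, doxorubicin or tunicamycin. Cisplatin crosslinks DNA, doxorubicin poisons topoisomerase II, and tunicamycin blocks N-linked glycosylation in the endoplasmic reticulum. The 16 samples form 8 groups of 2, called biological replicates in the labels, from cells of passage 10-15. Neither the doses and times nor the number of knockout clones can be stated (not given in the sources used here). The authors deposited a table for each treatment, with a single FPKM for each group, a level per annotated length that is scaled to the fragments sequenced, so no spread between replicates can be shown. A gene was called changed where the authors' Cuffdiff test gave q at most 0.05. Libraries came from an mRNA kit.

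Replication-dependent histones package newly made DNA and are transcribed mainly in S phase, under NPAT. Their mRNAs end not in a poly(A) tail but in a conserved stem-loop, which is bound by SLBP and cut with the help of the U7 snRNP. A library made from poly(A) RNA therefore holds mostly the minority of histone transcripts that do carry a tail, such as those made by genes with a second, polyadenylated form in differentiated or arrested cells. The levels given here cannot be read as those of the whole histone mRNA pool.

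The stem-loop could be read in the annotation itself. Of the 70 protein coding members, 34 have no base annotated after the stop codon and 36 have some. In 31 of these 36 the consensus of the histone stem-loop, 16 bases long, was found on the sense strand, starting 23 to 68 bases after the stop. The forms found are shown because H4 genes carry forms apart from those that H2A, H2B and H3 genes share, with the 6-base arms of the stem in capitals and the loop in lower case (GENCODE 29 transcripts, GRCh38).
H2A, H2B and H3, 17 members including HIST1H2AC and HIST2H2BE: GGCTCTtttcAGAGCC
H2B and H3, 5 members including HIST1H2BD: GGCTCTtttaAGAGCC
H2A, HIST1H2AG alone: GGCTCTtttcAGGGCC
H4, 5 members including HIST1H4B and HIST1H4H: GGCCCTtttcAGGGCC
H4, 3 members including HIST1H4I: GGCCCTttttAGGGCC
All 8 H4 genes with a match had an arm beginning GGCC, and the 7 H2A, 11 H2B and 5 H3 genes had GGCT. In 25 protein coding members the longest annotated sequence past the stop is 200 or more bases. Not all of the 25 hold the stem-loop pattern, as HIST1H2BJ (569 bases) and HIST1H3E (1908 bases) had no match. Whether a long transcript reads through the stem-loop or is spliced around it was not examined. HIST1H2AC is one of the 25, with 1187 bases after the stop and a stem-loop at chr6:26124669-26124684, 44 bases after the stop. HIST2H2BE has 1801 bases after the stop and its stem-loop at chr1:149886188-149886203, on the minus strand. The models of HIST1H2BK, HIST1H1C and HIST2H2AC hold the coding part only, so a read in their downstream sequence has no place in the gene's length.

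Promoters were read from RefSeq (GRCh38.p14), which matched 61 of the 76 members. The window runs from 250 bases before the start to 50 after it. The E-box CACGTG, the element that CLOCK and BMAL1 bind, was in 0 of the 61, against 7.26% of 35116 promoters in the table, on either strand. TATAAA was in 41 (67.2%, against 11.5%) and CCAAT in 51 (83.6%, against 34.6%). The octamer ATTTGCAT, a binding site of OCT1, was in 26 (42.6%, against 1.77%). The classes were unequal in these letters. The octamer was in 11 of 14 H2A, 14 of 18 H2B and 1 of 10 H3 promoters and in none of 6 H1 or 13 H4. CCAAT was in each H1, H2A, H2B and H3 promoter of the table and in 3 of 13 H4. A match describes letters in a window and is not a measured site. The 250 bases upstream of 4 genes that carry the results are shown with these last 3 motifs in capitals, on either strand, each sequence read along its gene.
HIST1H2BK, chr6:27146859-27147108, minus strand: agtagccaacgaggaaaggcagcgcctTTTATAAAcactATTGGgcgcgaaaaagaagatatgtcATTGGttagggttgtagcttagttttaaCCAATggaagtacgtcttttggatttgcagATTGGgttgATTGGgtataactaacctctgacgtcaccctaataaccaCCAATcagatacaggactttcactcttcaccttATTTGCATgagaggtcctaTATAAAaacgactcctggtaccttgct
HIST1H2AC, chr6:26123922-26124171, plus strand: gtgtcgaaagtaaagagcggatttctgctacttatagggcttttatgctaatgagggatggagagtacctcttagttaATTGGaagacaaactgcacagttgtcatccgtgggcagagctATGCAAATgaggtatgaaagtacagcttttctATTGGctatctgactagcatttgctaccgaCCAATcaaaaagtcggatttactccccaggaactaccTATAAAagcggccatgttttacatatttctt
HIST2H2BE, chr1:149886683-149886932, minus strand: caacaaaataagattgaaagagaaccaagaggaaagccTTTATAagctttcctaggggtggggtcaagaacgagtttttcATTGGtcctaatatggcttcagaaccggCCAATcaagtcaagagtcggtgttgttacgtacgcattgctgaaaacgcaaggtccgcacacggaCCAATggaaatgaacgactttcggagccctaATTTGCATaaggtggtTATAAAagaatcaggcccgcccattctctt
HIST1H1C, chr6:26056471-26056720, minus strand: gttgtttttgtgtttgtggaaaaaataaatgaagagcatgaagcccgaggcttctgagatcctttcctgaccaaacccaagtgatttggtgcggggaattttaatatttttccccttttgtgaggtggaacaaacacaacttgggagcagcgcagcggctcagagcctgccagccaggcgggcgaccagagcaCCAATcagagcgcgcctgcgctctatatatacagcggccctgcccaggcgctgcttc
The 2 H2B genes carry the octamer at the same distance, beginning 46 bases before the start. Their nearest TATAAA begins 27 bases before the start in HIST1H2BK and 30 in HIST2H2BE. HIST1H2AC has the octamer on the other strand, 130 bases before the start, and TATAAA at 31. The H1 promoter holds 1 CCAAT, at 57, and neither of the other motifs.

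The files used hold no counts, so the depth of each library is unknown, and the number of genes above 0 FPKM ran from 19007 in WT control to 22592 in WT cisplatin. ARNTL was 5.67 FPKM in WT control and 0.889 in KO control (q = 0.000213 in the authors' deposited table) and 1.31 and 0.474 with doxorubicin (q = 0.00509). In cisplatin it was 1.26 and 0.941 (q = 0.467) and in tunicamycin 3.25 and 2.24 (q = 0.081), so only its point estimate was lower in KO there. Of the markers of this line, VIM, CD44, AXL, CAV1, MSN and LAMB3 were all at or above 118 FPKM in each group. The luminal breast list (6 genes) summed to 305 FPKM in WT control and 164 in KO control, to 361 and 171 in cisplatin, to 52.1 and 27.4 with doxorubicin and to 266 and 106 in tunicamycin, nearly all from KRT19, and ESR1 and PGR were at or near 0. One label speaks of fibroblasts. The fibroblast list (6 genes) summed to at most 9.7 FPKM, and the blood list (4 genes) to at most 0.166. The luminal sum was lower and the fibroblast sum higher in KO in each table, but neither list moved as a whole. KRT19 and EPCAM were lower in KO in each table, while GATA3 was higher, at 0.742 and 3.82 FPKM in control. The fibroblast difference came mainly from COL1A1, at 2.32 and 5.74 FPKM in control, while COL1A2 was lower in KO in each table. The part of either list in the results below was not tested.

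The clustered histone genes were low in these libraries, with 1 exception. Only 33 of the 76 members reached 1 FPKM in any group, 13 reached 5 and 4 reached 10. Another 14 were listed at 0 in all 8 groups. The exception was HIST1H2BK (ENSG00000197903), a single-exon H2B gene at chr6:27146418-27146798. It stood at 58.1 FPKM in WT control and 52.0 in KO control, 83.7 and 54.0 in cisplatin, 118 and 117 with doxorubicin and 73.6 and 49.0 in tunicamycin. It was the highest member in each group and gave between 25.6% and 59.9% of the summed FPKM of all 76. FPKM is a level per length of the annotated gene, and the HIST1H2BK model is 381 bases of coding sequence.

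After it came HIST1H1C, which encodes linker histone H1.2, between 11.1 and 28.9 FPKM, and HIST1H2BD, between 7.30 and 14.9. HIST2H2BE, HIST2H2AC, HIST1H4C and HIST1H2AC had means over the 8 groups of 5.92, 5.35, 4.16 and 3.95 FPKM, and HIST1H2BJ, HIST1H1E and HIST1H3C of 2.99, 2.80 and 2.69. Without a value per library, the order among these neighbours cannot be set against a spread. The classes were uneven. In WT control the 23 H2B genes summed to 76.5 FPKM, the 6 H1 genes to 20.3, the 17 H2A genes to 14, the 15 H4 genes to 12.6 and the 15 H3 genes to 7.75.

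Testis histones were at or near 0. HIST1H2AA and HIST1H2BA, the testis H2A and H2B, were listed at 0 in all 8 groups. HIST1H1T, the testis H1, was above 0 only in WT doxorubicin (0.0476 FPKM), as was HIST3H3 (0.0852 FPKM). The duplicated copies HIST2H2AA4 and HIST2H4B were listed at 0 throughout, and HIST2H2AA3 and HIST2H4A stayed at or below 0.156 and 0.191 FPKM. Reads of such near-identical copies can be shared or dropped in counting, so these levels are uncertain.

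**Figure D1:**
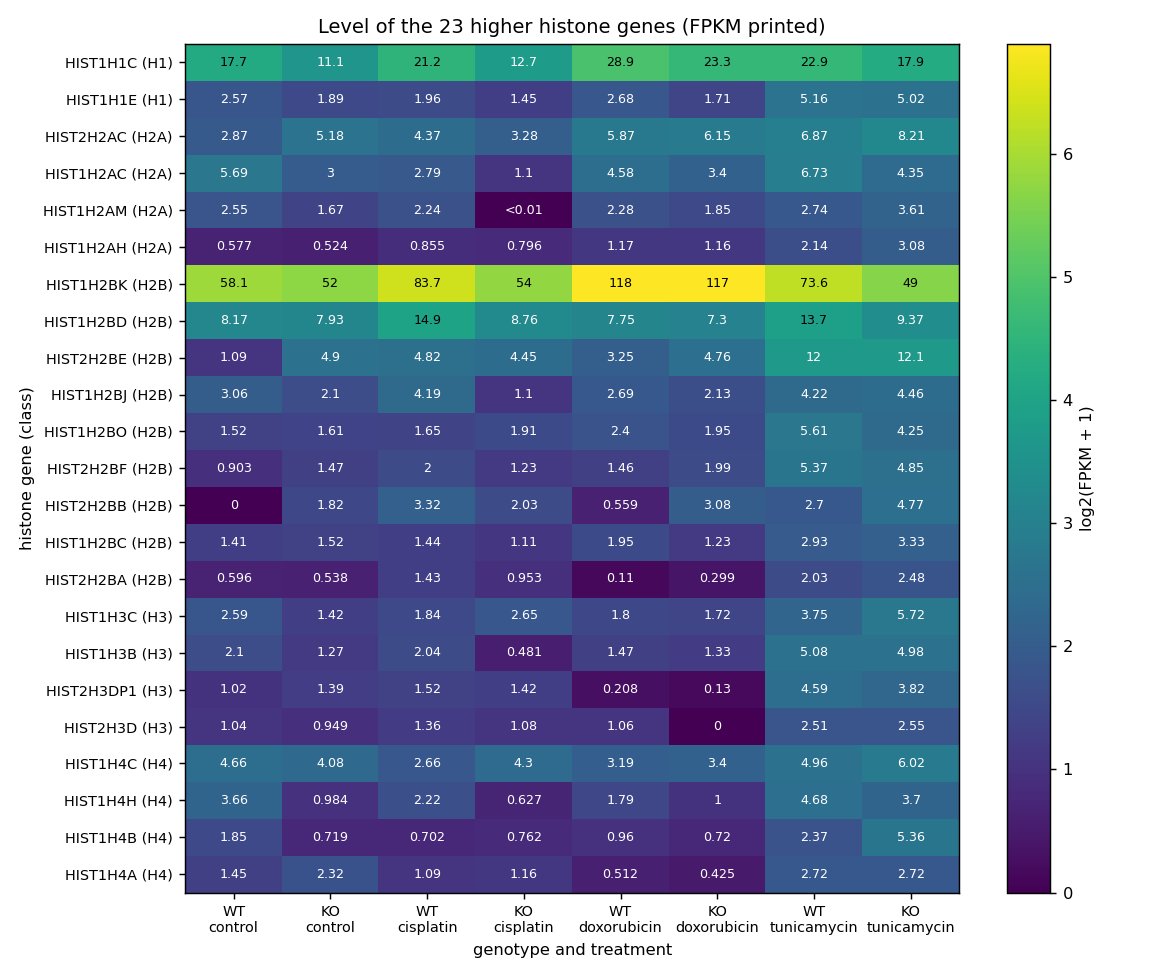
FPKM of the 23 members with a mean of 1 or more over the 8 groups (rows, by class), in each genotype and treatment (columns); colour is log2(FPKM + 1) and the printed number is the FPKM of the group, with no error available. HIST1H2BK is brightest in every column, at 49.0 to 118 FPKM, and most rows are at their brightest in the tunicamycin columns.

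Few of the histone genes that could be tested were called changed in KO. In the authors' deposited tables, 24 members were tested in control, 33 in cisplatin, 25 with doxorubicin and 36 in tunicamycin, and 39 were tested in none. In control 3 of the 24 were called, 1 higher and 2 lower, which is 12.5% against 43.8% of all tested genes. In cisplatin 6 of the 33 were called, all lower (18.2% against 49.6%). In doxorubicin 2 of the 25 were called, both lower (8% against 45.1%). In tunicamycin 7 of the 36 were called, 2 higher and 5 lower (19.4% against 49.3%). The share called lower was 8.33% of tested members in control, 18.2% in cisplatin, 8% with doxorubicin and 13.9% in tunicamycin, in each table below that of all tested genes (21.1%, 24.2%, 20.7% and 22.1%). The share called higher was 4.17%, 0%, 0% and 5.56%, beside 22.7%, 25.4%, 24.4% and 27.2%. In all, 11 members were called in at least 1 table. At the authors' unadjusted Cuffdiff p under 0.05, 1 member was higher and 3 lower in control, 0 and 9 in cisplatin, 2 and 3 with doxorubicin and 2 and 5 in tunicamycin. The share of all tested genes at this unadjusted threshold was not computed, so these counts have no background and cannot be read as particular to the members. All 3 calls in control were of genes whose deposited locus overlaps another gene's, and without such members 0 of 11 were called there, with 1 at an unadjusted p under 0.05. A deposited locus can span several genes whose models lie apart, so this selection does not show an overlap of transcripts.

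The histone genes are also low, and low genes are called less often. The larger of the group values had a median of 2.43, 1.52, 1.99 and 3.47 FPKM over tested members in control, cisplatin, doxorubicin and tunicamycin, and of 12.8, 10.8, 6.14 and 10.4 FPKM over all tested genes. Among genes whose larger value was from 0.5 to under 10 FPKM, 2 of 22 members were called in control, beside 26.6% of all such genes. In the other tables the members were 3 of 30 in cisplatin (beside 30.3%), 2 of 23 with doxorubicin (27.7%) and 4 of 32 in tunicamycin (31.5%). This band is not matched for length. Some members have short models, such as the 381 bases of HIST1H2BO, and at equal FPKM a shorter gene holds fewer fragments. The part of length in these shares was not tested. The median log2 ratio of KO over WT in the authors' deposited tables was -0.09 over tested members in control, -0.63 in cisplatin, -0.09 with doxorubicin and 0.13 in tunicamycin. Over all tested genes it was 0.01, 0.02, 0.04 and 0.04. In cisplatin 25 of 33 members had a point estimate below 0, against 13 of 24 in control, 16 of 25 with doxorubicin and 13 of 36 in tunicamycin. Most of these single estimates did not pass the test.

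**Figure D2:**
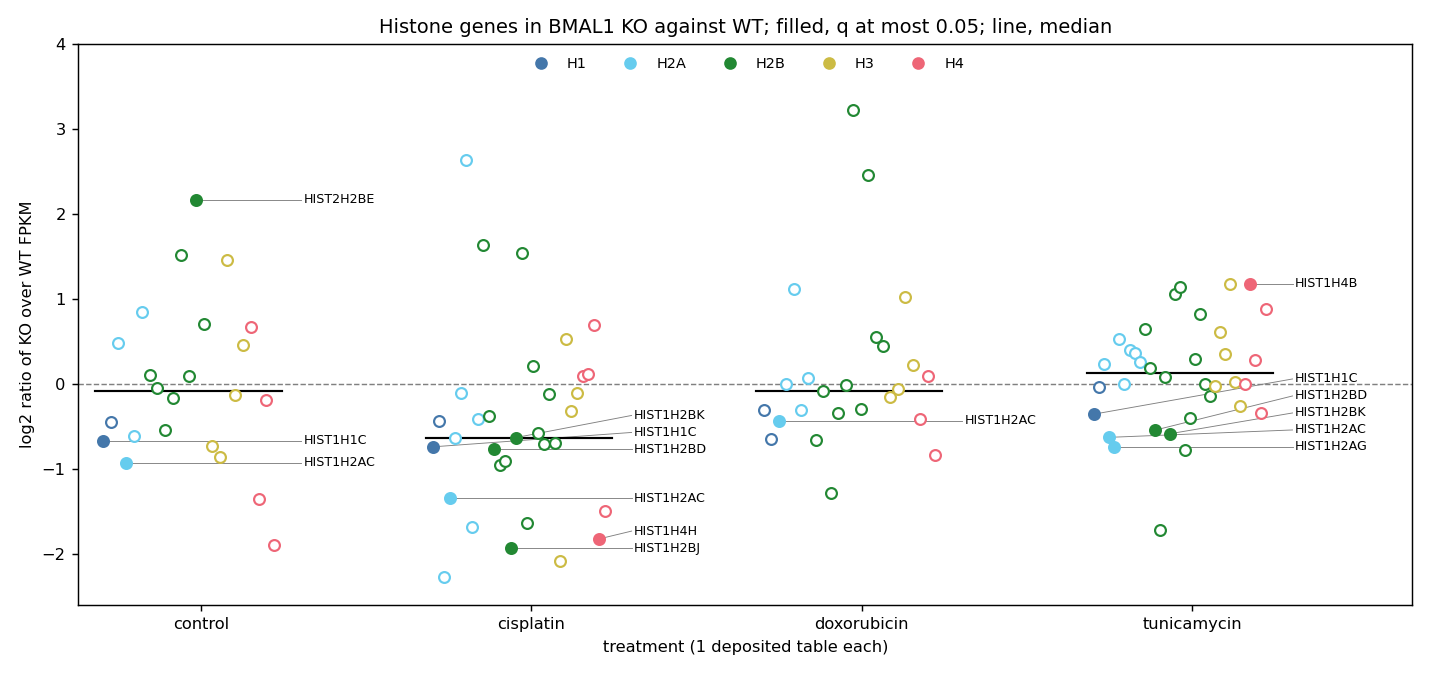
Log2 ratio of KO over WT FPKM from the authors' deposited tables for each tested member (points, coloured by class), by treatment; filled points have q at most 0.05 and black lines mark the median of tested members. The cisplatin median lies at -0.63 and the others between -0.09 and 0.13. For each treatment 1 tested member is not drawn: HIST2H2BB in control, HIST2H3D with doxorubicin and HIST1H2AJ in tunicamycin are listed at 0 in 1 group, and HIST1H2AM in cisplatin lies far below the axis.

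Among the linker histones, HIST1H1C fell in 3 tables. Its WT and KO levels were 17.7 and 11.1 FPKM in control (log2 ratio -0.67, q = 0.0409, authors' deposited table). In cisplatin they were 21.2 and 12.7 (-0.74, q = 0.000473) and in tunicamycin 22.9 and 17.9 (-0.36, q = 0.0159). In doxorubicin they were 28.9 and 23.3, a ratio of -0.31 that did not pass the test (q = 0.0791, authors' deposited table). The KO value was thus the lower one in each treatment. HIST1H1E, which encodes H1.4, had ratios of -0.45, -0.44, -0.65 and -0.04 in control, cisplatin, doxorubicin and tunicamycin and was not called in any of the authors' deposited tables. The deposited locus of HIST1H1C, chr6:26043227-26123926, is a span that also takes in 7 other genes, HFE among them. Its GENCODE 29 model lies at chr6:26055787-26056428, apart from those of HIST1H2BB, HIST1H3C, HIST1H1T and HIST1H2BC in that span. A shared locus alone does not show that reads were shared between these genes.

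HIST1H2AC, which encodes a canonical H2A, was the only member called in all 4 tables, and it was lower in KO in each. Its WT and KO levels were 5.69 and 3.0 FPKM in control, 2.79 and 1.10 in cisplatin, 4.58 and 3.40 with doxorubicin and 6.73 and 4.35 in tunicamycin. The log2 ratios in the authors' deposited tables were -0.93 (q = 0.000951), -1.35 (q = 0.000167), -0.43 (q = 0.0404) and -0.63 (q = 0.000173). The deposited locus of the gene is shared with 1 other gene. HIST2H2AC, another H2A gene, was not called in any of the authors' deposited tables, at 2.87 and 5.18 FPKM in control and 6.87 and 8.21 in tunicamycin. HIST1H2AG fell in tunicamycin from 0.97 in WT to 0.58 FPKM in KO (-0.74, q = 0.027, authors' deposited table). HIST1H2AJ was listed at 0 in WT and stood at 0.96 FPKM in KO in tunicamycin (q = 0.00233, authors' deposited table). HIST1H2AM, chosen after its values were seen, was listed at 2.24 FPKM in WT and 0.000659 in KO in cisplatin, and this difference was not called (q = 0.349, authors' deposited table).

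The H2B genes included the most abundant member, and 4 of the 11 genes called were of this class. HIST1H2BK fell in KO under cisplatin (log2 ratio -0.63, q = 0.000167, authors' deposited table) and under tunicamycin (-0.59, q = 0.000173). Its ratio was -0.16 in control (q = 0.45) and -0.01 with doxorubicin (q = 0.94), neither called in the authors' deposited tables. HIST1H2BD had the same calls. Its WT and KO levels were 14.9 and 8.76 FPKM in cisplatin (-0.77, q = 0.00352) and 13.7 and 9.37 in tunicamycin (-0.55, q = 0.00782), while control (8.17 and 7.93) and doxorubicin (7.75 and 7.30) were not called in the authors' deposited tables. Whether the ratios differ between treatments could not be tested, because no value per library was given. HIST1H2BJ fell in cisplatin, from 4.19 to 1.10 FPKM (-1.93, q = 0.0179, authors' deposited table). It was not called in the others, where WT and KO stood at 3.06 and 2.10 FPKM in control (-0.54), 2.69 and 2.13 with doxorubicin (-0.34) and 4.22 and 4.46 in tunicamycin (0.08).

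HIST2H2BE, an H2B gene of the chromosome 1 cluster whose annotated transcript runs far past its stem-loop, was the only member called higher in KO control. It stood at 1.09 FPKM in WT control and 4.90 in KO control (log2 ratio 2.17, q = 0.000407, authors' deposited table). Under drug the genotypes were closer, at 4.82 and 4.45 in cisplatin (q = 0.797), 3.25 and 4.76 with doxorubicin (q = 0.247), and 12.0 and 12.1 in tunicamycin (q = 0.992, authors' deposited tables). WT control was thus the lowest of the 8 groups and the tunicamycin groups the highest. Its deposited locus is a span that also takes in 11 other genes. Among them are HIST2H2AA3, HIST2H2AA4, HIST2H3A and HIST2H4B, each listed at 0 in both control groups. Also in this locus are HIST2H2BC, at 0.142 FPKM in WT and 0.288 in KO control, and HIST2H2BD, at 0.185 and 0, neither of them tested.

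Among H3 genes the single call was HIST2H3D, which was listed at 1.06 FPKM in WT and at 0 in KO with doxorubicin (q = 0.000186, authors' deposited table). It has near-identical copies in the same cluster. HIST1H3C stood at 2.59 and 1.42 FPKM in control and 3.75 and 5.72 in tunicamycin, with no call in the authors' deposited tables. Of the H4 genes, HIST1H4H fell in cisplatin from 2.22 to 0.627 FPKM (-1.82, q = 0.0123, authors' deposited table). Its ratio in control was -1.90 but missed the threshold (q = 0.0762). HIST1H4B was higher in KO in tunicamycin, at 5.36 against 2.37 FPKM (1.18, q = 0.0176, authors' deposited table), and had a ratio of -1.36 in control that was not called (q = 0.259). HIST1H4C, the highest H4 gene, was between 2.66 and 6.02 FPKM and was not called in any of the authors' deposited tables.

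The summed level was lower in KO in each table, and by most in cisplatin. FPKM is relative to the library, so fewer cells in S phase and less histone RNA per cell cannot be told apart. The 76 members summed to 131 FPKM in WT and 119 in KO control, 174 and 115 in cisplatin, 202 and 195 with doxorubicin and 214 and 191 in tunicamycin. In cisplatin the H2B sum was 121 FPKM in WT and 78.8 in KO, the H1 sum 23.2 and 14.2, and the H2A sum 14 and 7.59. The H3 sum (8.10 and 6.95) and H4 sum (7.78 and 7.31) were close. Without HIST1H2BK the totals were 90.5 in WT and 60.8 in KO cisplatin, and 141 and 142 in tunicamycin. The other 75 members held differences in both directions. In tunicamycin the KO minus WT differences below 0 summed to -18.2 FPKM and those above 0 to 19.7, so they nearly cancelled. HIST1H1C, HIST1H2BD and HIST1H2AC were among those below 0, and the summed H3 and H4 levels were higher in KO. In cisplatin the same sums were -34.6 and 4.87 FPKM.

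**Figure D3:**
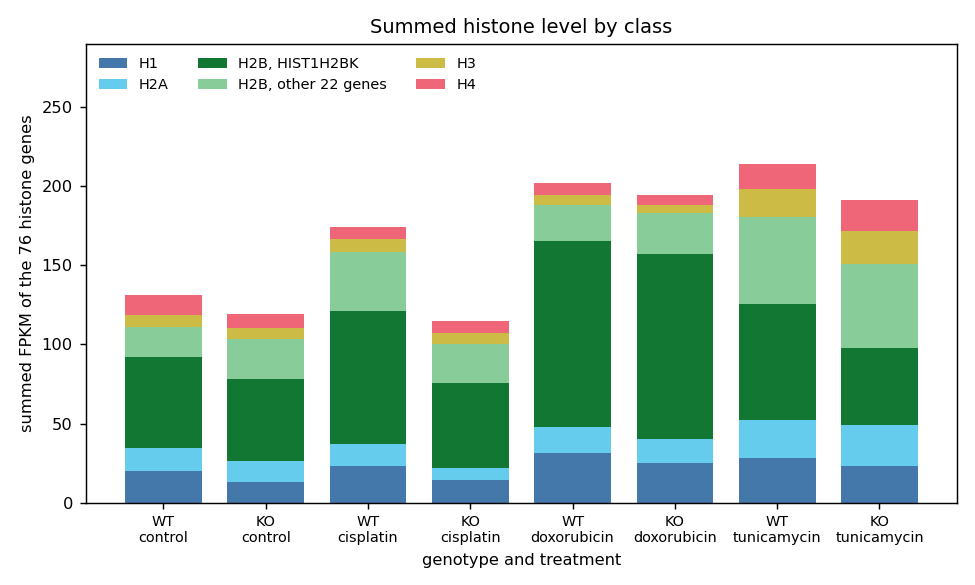
Summed FPKM of the 76 members by group, stacked by class, with HIST1H2BK drawn apart from the other 22 H2B genes; no error is available because each group has 1 deposited value per gene. KO cisplatin has the lowest bar (115 FPKM) and WT tunicamycin the highest (214), and the HIST1H2BK share is largest with doxorubicin.

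H2A and H2B genes often lie head to head and share the sequence between their starts. There were 12 such pairs with starts within 1000 bases, 11 of H2A with H2B and 1 of H2B with H3. Both partners were tested in 4 of the 12 pairs in control, 5 in cisplatin, 6 with doxorubicin and 8 in tunicamycin. Of these, 2, 3, 1 and 4 pairs had 1 partner called in the authors' deposited tables and 0 had both. The remaining pairs could not have shown both calls. Only 8% to 19.4% of tested members were called in any table. With so few testable pairs, the 0 does not show that partners behave apart. HIST1H2BO stands in 2 of the pairs, so the pairs are not all distinct. HIST1H2AC, called lower in all 4 tables, lies 219 bases from HIST1H2BC, whose WT and KO levels were 1.41 and 1.52 FPKM in control, 1.44 and 1.11 in cisplatin, 1.95 and 1.23 with doxorubicin and 2.93 and 3.33 in tunicamycin, with no call. HIST1H2BK lies 331 bases from HIST1H2AH, which was between 0.524 and 3.08 FPKM and had no call, so the levels of these partners were far apart. HIST2H2BE lies 323 bases from HIST2H2AC, at 1.09 and 2.87 FPKM in WT control and 4.90 and 5.18 in KO control. Both were higher in KO in control, and HIST2H2AC was not called (q = 0.206, authors' deposited table). HIST1H2BJ lies 292 bases from HIST1H2AG. The first was called in cisplatin and the second in tunicamycin, both lower. HIST1H2AG was lower in KO in cisplatin too, at 0.921 and 0.591 FPKM, without passing the test (q = 0.0736, authors' deposited table), and was not tested in control or doxorubicin.

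Tunicamycin came with higher histone levels in both genotypes. This comparison sets tables beside each other that were normalized separately, has no test, and uses log2(FPKM + 1), which understates changes of low genes. The drugs share the control group of their genotype. Over the 23 members of mean 1 FPKM or more, the median log2 difference of tunicamycin from control was 0.71 in WT and 1.01 in KO, beside -0.07 in both over all 12345 genes of that level. That selection uses the tunicamycin values themselves, and 5 of the 23 (HIST1H2AH, HIST1H4B, HIST2H2BA, HIST2H3D and HIST2H3DP1) reached it only through them. Over the 18 members with a mean of 1 FPKM or more in the 6 groups of the other treatments, a selection added after the values were seen, the median was 0.64 in WT and 0.80 in KO, beside -0.08 and -0.07 over all 12259 such genes. The difference was above 0 for 18 of the 18 in WT and 17 in KO, beside 42.4% and 41% of all such genes. Of these 18, 5 in WT and 8 in KO were past 2-fold higher and 0 lower, beside 3.81% and 2.9% of all such genes higher and 2.01% and 1.95% lower. With a floor of 1 FPKM in 1 of the 2 groups, 7 of 28 members in WT and 14 of 31 in KO were past 2-fold higher and 0 lower. Of all genes at this floor 4.64% and 3.77% were higher and 2.33% and 2.16% lower. This floor favours higher values, because 9 of the 28 and 10 of the 31 passed it only through the tunicamycin group, 3 and 6 of those counted as higher among them. With only protein coding members the counts were 5 of 25 and 11 of 28.

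The genes past 2-fold in both genotypes were HIST1H2BO, HIST2H2BB, HIST2H2BE, HIST2H2BF and HIST2H3DP1, named after their values were seen. HIST2H2BE went from 1.09 to 12.0 FPKM in WT and from 4.90 to 12.1 in KO. HIST2H2BF, also an H2B gene on chromosome 1, went from 0.903 to 5.37 and from 1.47 to 4.85. HIST1H2BO went from 1.52 to 5.61 in WT and from 1.61 to 4.25 in KO. HIST2H3DP1 and HIST2H2BB are pseudogenes by annotation. The first stood at 1.02 in WT control and 4.59 with tunicamycin, and at 1.39 and 3.82 in KO. HIST2H2BB was listed at 0 in WT control and at 2.70 FPKM with tunicamycin. All of these but HIST1H2BO lie on chromosome 1, but no share of chromosome 1 among the members was set beside this. In WT, HIST2H2BB and HIST2H2BF passed the floor of 1 FPKM only through the tunicamycin group. The list therefore shows no pattern by chromosome. HIST1H2BK, the most abundant, was not among them, at 58.1 and 73.6 FPKM in WT and 52.0 and 49.0 in KO.

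In KO the summed H3 and H4 levels were also higher with tunicamycin. HIST1H4B stood at 0.719 FPKM in KO control and 5.36 in KO tunicamycin, and HIST1H3C at 1.42 and 5.72. HIST1H3B, which like the next gene was picked from its values, stood at 1.27 and 4.98. HIST1H2AH went from 0.524 to 3.08. The H4 sum was 8.99 in KO control and 19.5 in KO tunicamycin, and the H3 sum 7.13 and 20.9. In WT these sums were 12.6 and 15.8 for H4 and 7.75 and 17.9 for H3.

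With doxorubicin many genes had lower levels than in control, and few histone genes were counted as past 2-fold lower. The pseudocount of 1 limits the falls that low genes can show and draws their differences toward 0. The members are low, and the shares and medians of all genes are not matched for level. With a pseudocount of 0.1, 3 of 21 members in WT were higher and 2 lower, and 4 of 24 in KO higher and 4 lower. The share of all genes at this lower pseudocount was not computed, so these counts have no background. With the pseudocount of 1, of all genes at 1 FPKM or more in 1 of the 2 groups, 41.3% in WT and 42% in KO were past 2-fold lower. Those past 2-fold higher were 4.39% and 4.16%. Of the members, 0 of 21 in WT and 2 of 24 in KO were lower (HIST1H4A and HIST2H3DP1, both of which passed the floor only through control), and 2 were higher in each genotype. Over the 23 members of mean 1 FPKM or more the median difference was -0.07 in WT and 0.01 in KO, beside -0.69 and -0.73 over all genes of that level. HIST1H2BK was higher in both genotypes, from 58.1 to 118 FPKM in WT and from 52.0 to 117 in KO. HIST1H1C went from 17.7 to 28.9 in WT and from 11.1 to 23.3 in KO. With the median of all genes subtracted, 8 of 21 members in WT and 7 of 24 in KO were past 2-fold higher and 0 lower. The share of all genes past 2-fold after this step was not computed, so these counts have no background and cannot be read as particular to the members.

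With cisplatin few histone genes were past 2-fold from control in either genotype. In WT 2 of 23 members were past 2-fold higher, HIST2H2BE and HIST2H2BB, and 0 lower, beside 6.81% and 4.63% of all genes. In KO 0 of 22 were higher and 1 lower, HIST1H2AM, beside 5.41% and 7.25%. The median over these 23 members was 0.21 in WT, and over these 22 it was -0.19 in KO, beside 0.11 and 0.13 over all genes at that floor. In KO the sign depended on the floor, since over the 23 members of mean 1 FPKM or more the median was 0.01 (0.12 over all genes of that level). HIST1H2AM was 1 of 5 members in KO that passed the floor only through the control group. The summed level was 1.33 times that of control in WT and 0.962 times in KO.

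**Figure D4:**
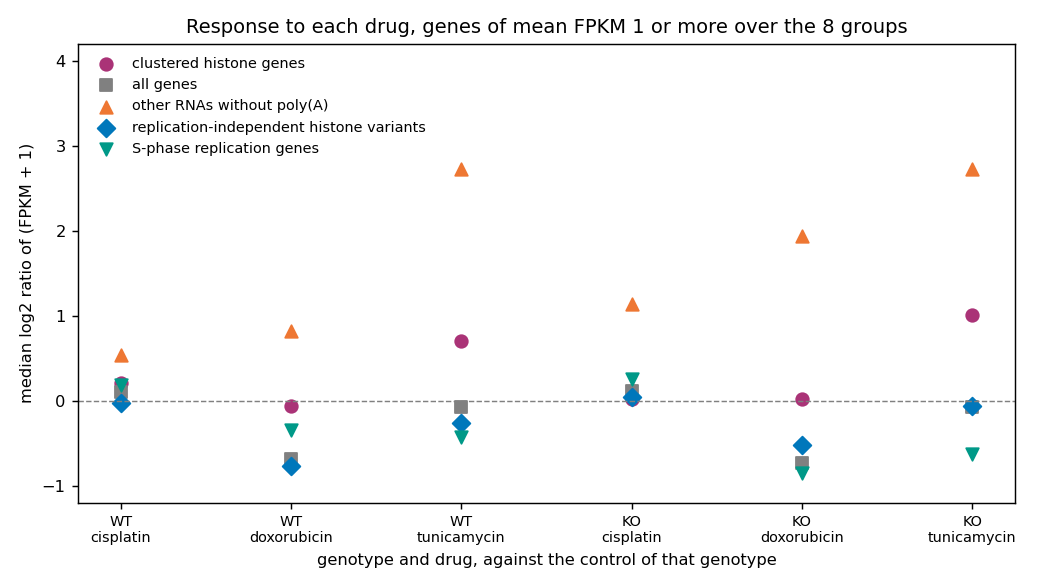
Median log2 ratio of (FPKM + 1) in each drug against the control of the same genotype, over genes with a mean of 1 FPKM or more in the 8 groups, for clustered histone genes (23), all genes (12345), other RNAs without a poly(A) tail (12 rows), replication-independent histone variants (10) and S-phase genes (36). Histone genes lie at 0.71 and 1.01 in tunicamycin, above all genes and below the other RNAs without a tail (2.73 and 2.72). The selection uses the tunicamycin values themselves. HIST1H2AH, HIST1H4B, HIST2H2BA, HIST2H3D and HIST2H3DP1 reached it only through them. So did RNY1 among the other RNAs, at 8.07 FPKM in WT tunicamycin and listed at 0 in every other group.

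Other RNAs that lack a poly(A) tail differed between libraries as well, and their values stand beside the histone result. The list has 29 symbols in 37 rows. It summed to 342 FPKM in WT control and 204 in KO control, 387 and 510 in cisplatin, 375 and 484 with doxorubicin and 1213 and 1630 in tunicamycin. RN7SL1, the RNA of the signal recognition particle, carried much of this sum, at 241 and 102 FPKM in control, where it was called lower in KO (q = 0.000213, authors' deposited table), and 293 and 606 in tunicamycin, where it was called higher. Without this row the sum was 102 in WT and 103 in KO control, 260 and 304 in cisplatin, 275 and 347 with doxorubicin and 920 and 1023 in tunicamycin. RN7SK, the RNA of the 7SK complex that holds back P-TEFb, was 13.7 FPKM in WT and 13.6 in KO control and 179 and 255 in tunicamycin. RMRP, the RNA of RNase MRP, was 17.4 and 14.1 in control and 176 and 239 in tunicamycin. Both were called higher in KO in cisplatin, doxorubicin and tunicamycin in the authors' deposited tables. Calls in the list were 1 higher and 1 lower of 8 tested rows in control, and 4 higher and 0 lower of 12, 13 and 17 in cisplatin, doxorubicin and tunicamycin. In the drug tables the called RNAs of this list were higher in KO, at 33.3%, 30.8% and 23.5% of tested rows, the last under the 27.2% of all tested genes. Their sum was highest in tunicamycin in both genotypes. The histone sum was highest in tunicamycin in WT (214 FPKM), while in KO tunicamycin (191) and doxorubicin (195) were close. How much RNA without a tail each library took up, and its part in the histone levels, was not tested.

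The histone genes outside the clusters, most of which are made outside S phase too and with poly(A) tails, had a far larger sum. Of the 13 genes in the list, the sum was 3043 FPKM in WT control and 2763 in KO control. Of 10 tested without drug, 2 were called higher and 6 lower in the authors' deposited tables. It was 3 and 5 of 11 in cisplatin, 5 and 3 of 10 with doxorubicin and 5 and 4 of 10 in tunicamycin. The background in control was 22.7% called higher and 21.1% called lower, and the drug tables gave 24.4% to 27.2% and 20.7% to 24.2%. The shares of the lists that follow are read beside these, which are not matched for level. H1F0, the H1 of arrested and differentiated cells, fell in each table, at 218 and 160 FPKM in control and 24.3 and 5.51 with doxorubicin (log2 ratios -0.45 and -2.14, both q under 0.05 in the authors' deposited tables). H1FX fell in each table too, at 172 and 123 FPKM in control. H3F3A, which encodes H3.3, was higher in KO in each of the authors' deposited tables, at 78.8 and 95.3 FPKM in control. HIST1H1C, H1F0 and H1FX, all linker histones, were lower in KO wherever they were called.

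Genes that make and finish histone mRNA showed calls in both directions. Of 32 such genes tested in control, 8 were called higher and 8 lower in the authors' deposited tables. It was 13 and 7 of 32 in cisplatin, 7 and 7 of 26 with doxorubicin and 11 and 5 of 32 in tunicamycin. The shares called lower were 25%, 21.9%, 26.9% and 15.6%, above those of all tested genes in control and doxorubicin and under them in the others. SLBP, the stem-loop binding protein, was 57.6 and 52.2 FPKM in control (q = 0.331) and 70.0 and 76.8 in cisplatin (q = 0.0138, authors' deposited tables). In doxorubicin it was 5.47 in WT and 1.13 in KO (log2 ratio -2.27, q = 0.000186, authors' deposited table), and in tunicamycin 34.1 and 28.1 (-0.28, q = 0.000173). LSM10, a subunit of the U7 snRNP, was called higher in KO in each of the authors' deposited tables, at 47.2 and 72.6 FPKM in control. NCBP1, the large cap-binding subunit, was lower in each, at 20.8 and 15.9 in control. SRRT, which links the cap to processing, and NELFE, of the pausing factor NELF, were called higher in each.

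Of 14 genes of poly(A) site choice, 6 were called higher and 1 lower in control, 6 and 1 in cisplatin, 4 and 1 of 13 tested with doxorubicin and 5 and 0 in tunicamycin, in the authors' deposited tables. These are 42.9%, 42.9%, 30.8% and 35.7% higher, above all tested genes in each table, and 7.14%, 7.14%, 7.69% and 0% lower, under them. PABPN1, the nuclear poly(A) binding protein, was higher in KO in each, at 70.6 and 91.6 FPKM in control. Of 20 histone chaperones and modifiers, 7 were called higher and 2 lower in control, 11 and 1 in cisplatin, 8 and 3 with doxorubicin and 9 and 2 in tunicamycin. These are 35%, 55%, 40% and 45% higher, above all tested genes in each table, and 10%, 5%, 15% and 10% lower, under them. IPO4, an importin that carries histones, was 39.0 and 63.7 FPKM in control and was called higher in each table, as was SSRP1 of the FACT chaperone.

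S-phase genes were called in both directions. Of 36, 12 were called higher and 10 lower in control, 16 and 6 in cisplatin, 12 and 11 of 34 tested with doxorubicin and 9 and 15 in tunicamycin, in the authors' deposited tables. These are 33.3% higher and 27.8% lower in control, 44.4% and 16.7% in cisplatin, 35.3% and 32.4% with doxorubicin and 25% and 41.7% in tunicamycin. Beside all tested genes (22.7% and 21.1%, 25.4% and 24.2%, 24.4% and 20.7%, 27.2% and 22.1%), the cisplatin share called lower and the tunicamycin share called higher were under the background and the others above it. PCNA, the sliding clamp, was lower in KO in each table, at 221 and 140 FPKM in control. E2F1, which drives S-phase genes, was lower in each as well (61.3 and 54.0 in control), as was MCM4. RFC3, FEN1, MCM5 and MCM6 were higher in each, RFC3 at 27.0 and 45.4 FPKM in control. With tunicamycin the median log2 difference of the S-phase genes from control was -0.43 in WT and -0.63 in KO, opposite in sign to that of the clustered histone genes.

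Neighbours of the large cluster were compared by position. The HIST1H members span chr6:25726132-27893843 in the deposited loci, and 80 other genes lie inside. Of these, 12 were tested in control, 4 called higher and 0 lower in the authors' deposited tables (median log2 ratio 0.56), and 4 and 0 of 17 in cisplatin (0.23). It was 3 and 1 of 8 with doxorubicin (0.34) and 6 and 1 of 18 in tunicamycin (0.14). The HIST1H members themselves gave 0 higher and 2 lower of 18 without drug (-0.32), 0 and 6 of 24 in cisplatin (-0.64), 0 and 1 of 20 with doxorubicin (-0.23), and 2 and 5 of 27 in tunicamycin (0.08). BTN3A2, a butyrophilin gene named after its values were seen, was called higher in KO in all 4 of the authors' deposited tables, at 3.59 and 7.82 FPKM in control. Both sets stand beside 22.7% higher and 21.1% lower of all tested genes in control, 25.4% and 24.2% in cisplatin, 24.4% and 20.7% with doxorubicin and 27.2% and 22.1% in tunicamycin. The genes between gave 33.3%, 23.5%, 37.5% and 33.3% higher in these tables, the cisplatin share being under that of all genes. The HIST1H members gave 11.1%, 25%, 5% and 18.5% lower, of which the cisplatin share alone was above that of all genes, and by under 1 percentage point. The sets were not tested against each other.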

How the data were processed

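RNA-seq of 16 samples (8 groups of 2) was used as deposited. The submitters' processing notes name build hg38 and the tools STAR 2.5.3, Cufflinks, Cuffdiff, Trimmomatic 0.35 and FastQC 0.11.5. How strand and multiply mapped reads were handled, and the annotation release, cannot be stated (not given in the sources used here). The 4 tables, per the file headers, come from Cuffdiff, with a single FPKM for each group. The log2 columns that the authors deposited are KO over WT FPKM without a pseudocount, and recomputation matched to within 4.64e-05 over tested genes. The score deposited by the authors is Cuffdiff's test statistic. The p-values and q-values were deposited by the authors, and the smallest p was 5e-05. With no value per library, no standard deviation, refit or permutation was possible, and depth per library is unknown.

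Members followed the symbol rule. Calls had q at most 0.05. Drug responses used log2(FPKM + 1) across tables, with a 2-fold limit and no test, in genes of 1 FPKM or more in 1 of the 2 groups. Overlapping loci were read from the deposited coordinates, which can span several genes whose models lie apart. Stem-loops came from GENCODE 29 transcripts (window 200 bases) and promoters from RefSeq. Genes named were those called the same way in all tables tested (at least 3), the 3 largest called ratios per direction and table, the 10 highest means, testis genes and duplicated copies. In the other lists they were those called the same way in all tables and the 3 largest ratios per table. Members and lists were chosen with earlier results of these data known. Alternatives were a q of 0.01, an FPKM floor, leaving out overlapping or duplicated genes, a pseudocount of 0.1, no floor and median centring. Protein coding members only and a mean of 1 FPKM over the groups, or over the 6 groups of the other treatments, were added after seeing the data. The counting was tested on simulated data.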

Additional observations from a re-analysis of the deposited data

How the results depend on the processing

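No paired analysis was possible because the tables hold 1 value per group, so the replicate block and the fits without replicate 1 or without replicate 2 were not run. Of 56 recomputed counts, 39 stayed within 1.5 times the reported count. The counts without a floor are among the 39 and could not have differed. With a pseudocount of 1, a gene under 1 FPKM in both groups cannot pass 2-fold. Without members of overlapping loci, the calls in KO against WT were 0 of 11 in control (from 3), 3 of 14 in cisplatin (from 6), 1 of 10 in doxorubicin (from 2) and 3 of 15 in tunicamycin (from 7), which is by construction a smaller list. This step also leaves out members whose models lie apart from the other genes of their locus. At q 0.01 they were 1 in doxorubicin and 4 in tunicamycin, and without the duplicated members 1 in doxorubicin. With a pseudocount of 0.1, members past 2-fold were 7, 5 and 15 in WT cisplatin, doxorubicin and tunicamycin, and 5 and 8 in KO cisplatin and doxorubicin. With the median of all genes subtracted they were 8 in WT doxorubicin, 7 in KO doxorubicin and 3 in KO cisplatin. Neither for this step nor for the lower pseudocount was the share of all genes computed. Over members with a mean of 1 FPKM in the 6 groups of the other treatments, added after seeing the data, there were 8 in KO tunicamycin (from 14), from a list of 18. With protein coding members only there was 1 in WT cisplatin. Of the 16 calls of named members with a finite ratio, 9 held at q 0.01 and 7 did not. None of the KO against WT medians changed sign under the alternatives run, with ranges of 0.02 to 0.18 under tunicamycin, -0.65 to -0.61 under cisplatin, -0.32 to -0.09 under doxorubicin and -0.16 to -0.09 without drug. The medians of drug against control are not in these ranges, and that of KO cisplatin changed sign with the floor. Depth is unknown, so no limit of detection can be given for members listed at 0.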
